A study of Mus musculus with 33 samples.

Results

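The E2F transcription factor genes E2f1 to E2f8 and the pocket protein genes Rbl1 and Rbl2, 10 genes in all, were followed in mouse liver over 11 times after 70% partial hepatectomy, the surgical removal of most of the liver. The genes were chosen by name. They were 10 of the 18193 genes with a probe set naming 1 gene, and each was represented by its probe set with the highest mean among the 22 that name these genes. All 10 were among the 13642 genes tested, but E2f7 passed the filter on low values only through the arrays on which it was high. Livers were collected at 0 d, on the first day at 0.25 d, 0.5 d, 0.75 d and 1 d, then at 1.5 d, 2 d, 3 d and 4 d, and late at 7 d and 14 d, where d stands for days since the operation. Each time has 3 arrays, biological replicates by their labels, and there are 33 arrays in all. The sample numbers of 0.25 d, 0.5 d, 0.75 d and 1.5 d form a run apart from those of the other times, 0 d included. Whether those arrays were processed apart is not given. Any such effect cannot be told apart from time where these times are compared with 0 d, 1 d or 2 d. All groups, 0 d included, carry the same label of operated liver. Whether the 0 d livers were taken before or just after the operation is not given in the sources used here, nor are strain, age and sex. The deposited values are log2 signals from whole liver, so fewer cells of a type and less RNA per cell cannot be told apart.

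E2F proteins bind the promoters of genes needed for DNA replication and cell division. E2F1, E2F2 and E2F3 are classed as activators, E2F4, E2F5 and E2F6 as repressors, and E2F7 and E2F8 as atypical repressors that bind without a dimer partner. The pocket proteins p107, encoded by Rbl1, and p130, encoded by Rbl2, bind E2Fs and hold target genes down in resting and early G1 cells until cyclin-dependent kinases phosphorylate them. Hepatocytes rest in the adult liver and return to the cell cycle after partial hepatectomy.

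The median signal lay between 5.32 and 5.38 on every array, and each array correlated with the others of its time at 0.983 to 0.996. Albumin (Alb) measured 14.60 to 14.80 on all arrays, and the summed level of 5 hepatocyte markers stayed between 16.4 and 16.5. Single markers among them did move, with Hnf4a at 0.32 at 0.25 d and Cyp2e1 at -0.28 at 3 d (limma adjusted p = 0.00213 and 0.00230). One free-text label field instead speaks of cells derived from fat. The summed level of 5 adipocyte markers was 7.89 to 9.12 at 0 d. Some arrays stood apart within their time on a list of genes. On replicate 2 at 2 d the mean of 14 tested G2/M target genes was 0.90 above 0 d, against 3.00 and 3.70 on replicates 1 and 3. The adipocyte markers averaged 1.21 above 0 d on replicate 3 at 2 d, against -0.06 and -0.15 on the others of that time, and 1.91 on replicate 3 at 7 d, against -0.30 and -0.22. The tested neutrophil and monocyte markers averaged 2.14 on replicate 1 at 7 d and 2.31 on replicate 1 at 14 d, and between 0.36 and 0.63 on the other arrays of those times. No array left out alone brought a member call at 7 or 14 d, where the count stayed at 0 in limma. All 6 member calls at 2 d held without replicate 2, where the difference was 0.97 for E2f1, 1.98 for E2f2, 1.68 for E2f7, 2.24 for E2f8, 2.84 for Rbl1 and -0.90 for Rbl2. Without replicate 3 at 2 d they held as well, with E2f7, at 1.04, just inside the threshold.

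Promoter sequences of 8 of the 10 genes were at hand from RefSeq (build GRCm38.p6), as 10 windows from 250 bases before to 50 bases after an annotated transcript start. They were searched on both strands for the E2F site letters TTTCCCGC, TTTGGCGC, TTTCGCGC and TTTGCCGC. Of the 8 genes, 4 held a match, each in 1 window, and E2f2 and E2f3 had 2 windows each. Over all genes, 744 of 32851 windows (2.26%) held one, a share of windows and not of genes. The matches are shown because E2f2, E2f7 and Rbl1 were called higher at 2 d than at 0 d, while E2f3 was not. Capitals mark the matched letters, each run is 30 bases long and is written along the gene's own strand, and positions count from 1 at the first transcribed base.
E2f2, matched bases 40 to 47, chr4:136172294-136172323, plus strand: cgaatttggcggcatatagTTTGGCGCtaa
E2f3, matched bases -11 to -4, chr13:29986056-29986085, minus strand: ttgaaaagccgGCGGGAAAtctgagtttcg
E2f7, matched bases -198 to -191, chr10:110745230-110745259, plus strand: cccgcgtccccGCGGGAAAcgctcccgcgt
Rbl1, matched bases -18 to -11, chr2:157204534-157204563, minus strand: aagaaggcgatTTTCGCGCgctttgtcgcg
The E2f3 and E2f7 matches were to TTTCCCGC read on the opposite strand. E2f8 held no such match, but 20 to 15 bases before its start it held the letters of a cell cycle homology region (CHR; TTTGAA or TTTAAA), an element of genes active late in the cycle.
E2f8, matched bases -20 to -15, chr7:48881599-48881628, minus strand: gagcgggttaatTTCAAAtcgggggctgga
CHR letters are short and were found in 9062 of 32851 windows (27.6%), again a share of windows and not of genes. Of the 8 genes, 4 held them, E2f2, E2f3, E2f8 and Rbl2. Of these, E2f3 had no call of higher and Rbl2 was called lower at 2 d. The windows of E2f1, E2f6, E2f8 and Rbl2 held none of the E2F letters, which says only that these letters are not in those windows. For E2f1 the window's start lies 466 bases inside the outer end of the annotated gene, and for E2f8 477 bases inside it. The E2f2 window with the CHR letters has its start 8508 bases inside the gene, and is not the window with the E2F match.

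Over the whole course, 9 of the 10 genes varied (limma moderated F-test over the 10 later times, Benjamini-Hochberg adjusted p under 0.05), where 69.4% of all genes tested did. With single arrays left out the count was 7 to 9, and 7 came without 2 d replicate 1. The exception was E2f5, with an adjusted p of 0.319 on its probe set with the highest mean. Each of its other probe sets, tested in place of that one, passed (limma F-test adjusted p = 0.00649 and 0.00233). The members' adjusted p from limma was lowest for Rbl1, at 5.68e-09, followed by E2f6 at 2.37e-07 and E2f1 at 9.60e-07. Set beside 0 d, the E2F and pocket genes gave 14 calls of higher and 10 of lower over the 10 comparisons. Over all genes tested, 8.25% of these tests gave higher and 10.6% lower, so the calls of lower were at the background. Those 10 comparisons share the same 3 arrays at 0 d. The calls of higher include those of E2f7 at 2 and 3 d, a gene that passed the filter only through arrays on which it was high.

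**Figure D1:**
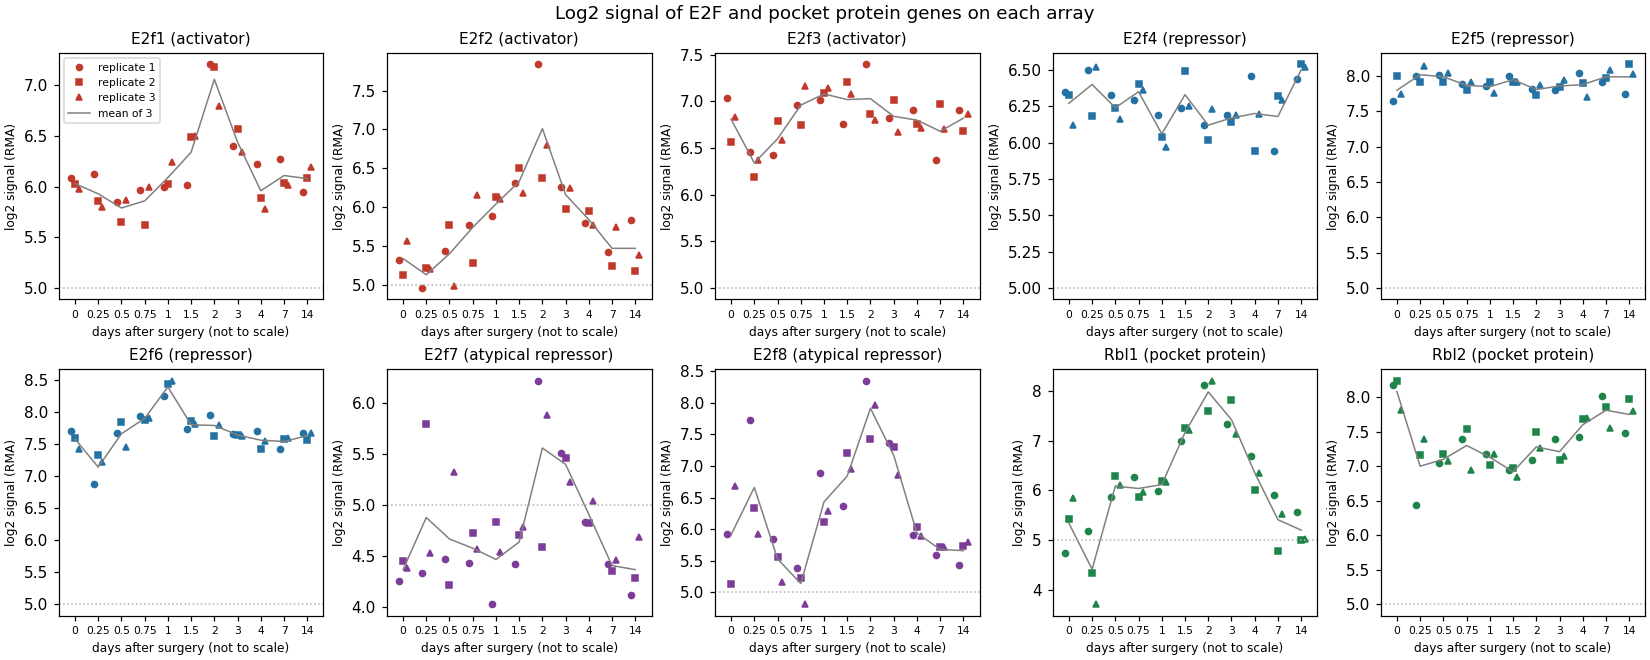
Log2 signal (RMA, vertical axes with different ranges) of the 10 genes against days after surgery, with times evenly spaced and not to scale; markers are the 3 arrays of a time, grey lines their means and dotted lines the filter value of 5. E2f1, E2f2, E2f7, E2f8 and Rbl1 had their highest mean at 2 d, E2f6 at 1 d, and Rbl2 its highest mean at 0 d.

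Among the activators, E2f1 and E2f2 rose, and E2f3 had no call of higher at any time. E2f1, a driver of entry into S phase, measured 6.09, 6.03 and 5.98 on the 0 d arrays, 6.02, 6.49 and 6.50 at 1.5 d, 7.21, 7.18 and 6.80 at 2 d and 6.40, 6.57 and 6.34 at 3 d. The 2 d arrays lay above every array of the other times, and the 1.5 d arrays overlapped those of 0 d. E2f1 was 2.04-fold higher at 2 d than at 0 d (log2 difference 1.03 ± 0.14, SE, n = 3 arrays per time; limma adjusted p = 5.49e-06). At 3 d the difference was 0.41 ± 0.14 (limma adjusted p = 0.0373), and at 1.5 d it was 0.31 ± 0.14 (limma adjusted p = 0.123). The steps on both sides of the peak were called: 0.73 ± 0.14 from 1.5 to 2 d (limma adjusted p = 0.00868) and -0.62 ± 0.14 from 2 to 3 d (limma adjusted p = 0.0424). A further fall of -0.47 ± 0.14 from 3 to 4 d was called too (limma adjusted p = 0.0402).

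The 2 d call for E2f1 held with any array left out, with differences of 0.96 to 1.17. The 3 d call did not: without 3 d replicate 2 it was 0.34 (limma adjusted p = 0.154), and it was also lost without 3 d replicate 1 or any one of the 0 d arrays. The fall from 2 to 3 d ended with 11 of the 33 arrays left out one at a time, for example at -0.55 without 2 d replicate 1 (limma adjusted p = 0.279) and at -0.56 without 2 d replicate 2 (limma adjusted p = 0.0798). The rise from 1.5 to 2 d ended when replicate 1 of either time was left out (2 d, then 1.5 d), at 0.65 and 0.57 (limma adjusted p = 0.0689 and 0.0824), and the fall from 3 to 4 d with any one of 5 arrays left out, 3 d replicates 1 to 3 and 4 d replicates 2 and 3 (limma adjusted p of up to 0.184). A second E2f1 probe set correlated with the first at 0.84 over the 33 arrays and was 1.27 ± 0.21 higher at 2 d (limma adjusted p = 7.39e-05). On that probe set E2f1 was also lower at 0.25 d, by -0.58 (limma adjusted p = 0.0243), where the main probe set gave -0.10 (limma adjusted p = 0.568). The remaining E2f1 probe set stayed between 4.40 and 5.12 on all arrays and showed no call.

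E2f2, an activator close to E2f1 in structure, measured 5.32, 5.13 and 5.56 at 0 d, 5.89, 6.13 and 6.11 at 1 d, 6.31, 6.51 and 6.18 at 1.5 d and 7.84, 6.38 and 6.80 at 2 d. Every array from 1 to 4 d lay above every 0 d array. E2f2 was 1.00 ± 0.26 higher at 1.5 d (limma adjusted p = 0.00723), 1.67 ± 0.26 higher at 2 d (3.18-fold, limma adjusted p = 3.22e-05) and 0.82 ± 0.26 higher at 3 d (limma adjusted p = 0.0238). At 1 d the difference of 0.71 ± 0.26 missed the threshold (limma adjusted p = 0.0575). The second E2f2 probe set, which correlated with the first at 0.93, passed it there, with 0.78 ± 0.20 (limma adjusted p = 0.00736). No step between neighbouring times was called for E2f2 on all arrays. Without 2 d replicate 2, E2f2 rose by 0.99 from 1.5 to 2 d (limma adjusted p = 0.0262) and fell by -1.16 from 2 to 3 d (limma adjusted p = 0.0196). Leaving out any one of 4 arrays (0 d replicates 1 and 2, 3 d replicates 1 and 3) ended the 3 d call, with limma adjusted p of up to 0.0942.

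E2f3, the last activator, measured 7.04, 6.57 and 6.83 at 0 d, 6.46, 6.19 and 6.37 at 0.25 d, 7.02, 7.09 and 7.14 at 1 d and 7.40, 6.87 and 6.80 at 2 d. The arrays at 0.25 d all lay below those at 0 d, and the arrays at every later time overlapped them. E2f3 fell at 0.25 d by -0.47 ± 0.16 (1.38-fold, limma adjusted p = 0.0197). That call was lost without 0 d replicate 1, at -0.35 (limma adjusted p = 0.110), without 0.25 d replicate 2, at -0.39 (limma adjusted p = 0.0759), and after quantile normalization, at -0.38 (limma adjusted p = 0.0582). At 2 d the difference was 0.21 with a 95% confidence interval of -0.12 to 0.55. The other E2f3 probe set, between 4.61 and 5.28, gave 0.09 at 0.25 d (limma adjusted p = 0.618).

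Of the repressors E2f4 to E2f6, only E2f6 was called against 0 d. E2f4, the main E2F of resting cells together with p130, measured 5.94 to 6.54 on all 33 arrays, with no call against 0 d (moderated F-test adjusted p from limma = 0.0478). Its 14 d arrays, at 6.44, 6.54 and 6.52, all lay above the 0 d arrays at 6.35, 6.33 and 6.12, a difference of 0.23 ± 0.12 (limma adjusted p = 0.372). At 2 d the E2f4 difference of -0.14 had a 95% confidence interval of -0.38 to 0.09. E2f5, which also works with pocket proteins, measured 7.65 to 8.17, also with no call. Its interval at 2 d ran from -0.20 to 0.21 around a difference of 0.01. For E2f5 the probe sets disagreed: the one with the highest mean has no transcript accession in the annotation, and it correlated at -0.40 and -0.38 with 2 others that share one E2f5 transcript. One of those others was higher at 1.5, 2 and 3 d, by 0.29, 0.31 and 0.34 (limma adjusted p = 0.0438, 0.0281 and 0.0190), and the other was lower at 0.25 d by -0.23 (limma adjusted p = 0.0159).

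E2f6, a repressor that lacks the pocket binding region and works in a Polycomb-type complex, was lowest at 0.25 d and highest at 1 d. It measured 7.71, 7.59 and 7.43 at 0 d, 6.88, 7.33 and 7.22 at 0.25 d, 7.93, 7.87 and 7.90 at 0.75 d, 8.25, 8.43 and 8.49 at 1 d and 7.74, 7.86 and 7.81 at 1.5 d. The 1 d arrays lay above every array of the other times, and the 0.25 d arrays below every one. E2f6 fell at 0.25 d by -0.44 ± 0.11 (limma adjusted p = 0.00198) and was 0.81 ± 0.11 higher at 1 d (1.76-fold, limma adjusted p = 9.46e-06). From 1 to 1.5 d it fell by -0.59 ± 0.11 (limma adjusted p = 0.00497), while E2f1 and E2f2 had not reached their highest level. These 3 calls held with any array left out. The smaller rise at 0.75 d, 0.32 ± 0.11 (limma adjusted p = 0.0353), ended when 0 d replicate 2 or 3, or any one of the 0.75 d arrays, was left out. A second E2f6 probe set, with a correlation of 0.33 to the first, did not pass at any of these times. It gave 0.05 at 0.25 d (limma adjusted p = 0.766), 0.34 at 1 d (limma adjusted p = 0.0673) and -0.39 from 1 to 1.5 d (limma adjusted p = 0.125).

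The atypical repressors were high at 2 and 3 d. E2f8 measured 5.92, 5.13 and 6.68 at 0 d, 7.72, 6.34 and 5.93 at 0.25 d, 8.35, 7.42 and 7.96 at 2 d, 7.36, 7.30 and 6.85 at 3 d and 5.90, 6.04 and 5.89 at 4 d. The 2 and 3 d arrays lay above all 0 d arrays, while those at 0.25 d overlapped them and spread over more than 1 log2 unit. E2f8 was 2.00 ± 0.35 higher at 2 d (4.00-fold, limma adjusted p = 0.000171) and 1.26 ± 0.35 higher at 3 d (limma adjusted p = 0.0122). The 3 d call was lost without 0 d replicate 2, at 0.87 (limma adjusted p = 0.108), or without 3 d replicate 1, at 1.16 (limma adjusted p = 0.0507). From 3 to 4 d E2f8 fell by -1.23 ± 0.35 (limma adjusted p = 0.0366), a call that was lost with any one of 5 of those 6 arrays left out. The second E2f8 probe set never reached 5 on any array, with values of 3.63 to 4.28.

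E2f7 has 1 probe set, and it reached a log2 value of 5 on 8 of the 33 arrays and on 0 of 3 at 0 d. It measured 4.26, 4.45 and 4.39 at 0 d, 6.22, 4.59 and 5.88 at 2 d, 5.51, 5.46 and 5.23 at 3 d and 4.84, 4.83 and 5.04 at 4 d. Single arrays were also high early, with 5.79 on replicate 2 at 0.25 d and 5.33 on replicate 3 at 0.5 d. E2f7 was 1.20 ± 0.33 higher at 2 d (limma adjusted p = 0.00946) and 1.03 ± 0.33 higher at 3 d (limma adjusted p = 0.0260). Without 2 d replicate 2 the difference at 2 d was 1.68 ± 0.31 (limma adjusted p = 0.000235), and without 2 d replicate 1 it was 0.87 (limma adjusted p = 0.0896). The 3 d call ended when any one of the 0 d arrays, or 3 d replicate 1 or 2, was left out, with limma adjusted p of up to 0.0802. Near the floor of the array a log2 difference understates the change.

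At 1.5, 2 and 3 d Rbl1 was above its 0 d level and Rbl2 below its own. Rbl1 measured 4.74, 5.42 and 5.85 at 0 d, 5.18, 4.34 and 3.70 at 0.25 d, 5.86, 6.30 and 6.12 at 0.5 d, 7.00, 7.27 and 7.23 at 1.5 d, 8.12, 7.61 and 8.22 at 2 d, 7.34, 7.83 and 7.14 at 3 d and 6.70, 6.02 and 6.36 at 4 d. From 0.5 to 4 d every array lay above every 0 d array. Rbl1 was 1.83 ± 0.31 higher at 1.5 d (limma adjusted p = 0.000172), 2.65 ± 0.31 higher at 2 d (6.28-fold, limma adjusted p = 6.75e-07) and 2.10 ± 0.31 higher at 3 d (limma adjusted p = 2.59e-05). At 0.5 d the difference was 0.76 ± 0.31 (limma adjusted p = 0.0564), and at 4 d it was 1.03 ± 0.31 (limma adjusted p = 0.0666). The 3 calls of higher held with any array left out, down to 1.53 at 1.5 d, 2.35 at 2 d and 1.80 at 3 d. From 3 to 4 d Rbl1 fell by -1.07 ± 0.31 (limma adjusted p = 0.0356), and leaving out 3 d replicate 1 or 2 or 4 d replicate 2 or 3 ended that call.

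Rbl1 was also called lower at 0.25 d, by -0.93 ± 0.31 (limma adjusted p = 0.0156), although its arrays overlapped those of 0 d. That call was lost without 0 d replicate 3, at -0.67 (limma adjusted p = 0.107), or without 0.25 d replicate 3, at -0.57 (limma adjusted p = 0.144). Rbl1 passed a log2 value of 5 on 28 of 33 arrays, so its low values lie near the floor. Its other 3 probe sets lay near or under that value on all arrays, and they correlated with the main one at 0.77, 0.01 and -0.50. At 2 d, where the main probe set gave 2.65, these gave 1.23, -0.03 and -0.35; none of the 3 passed the filter, so none was tested.

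Rbl2 went down within 0.25 d and stayed down to 3 d. It measured 8.17, 8.24 and 7.82 at 0 d, 6.44, 7.16 and 7.40 at 0.25 d, 6.94, 6.97 and 6.84 at 1.5 d, 7.09, 7.50 and 7.26 at 2 d, 7.43, 7.68 and 7.70 at 4 d and 7.48, 7.97 and 7.80 at 14 d. Every array from 0.25 to 4 d lay below every 0 d array, and arrays at 7 and 14 d overlapped them. Rbl2 was lower at each of the 7 times from 0.25 to 3 d, between -0.78 ± 0.18 at 0.75 d (limma adjusted p = 0.00295) and -1.16 ± 0.18 at 1.5 d (2.24-fold, limma adjusted p = 0.000105). At 2 d it was -0.79 ± 0.18 (limma adjusted p = 0.00257). At 4, 7 and 14 d the differences of -0.48, -0.27 and -0.33 did not pass (limma adjusted p = 0.174, 0.584 and 0.437). All 7 calls held with any array left out. The second Rbl2 probe set correlated with the first at 0.94 and was called lower at the same 7 times, between -0.68 and -1.32.

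Some erythroid markers were lower at the same times as Rbl2. Over these times the share of all genes called lower was highest at 0.25 d, at 28.8%, and lowest at 1 d, at 9.55%. Of 6 listed, 5 were measured and 3 tested, and 2 of these, Alas2, the red cell enzyme of haem synthesis, and Klf1, a red cell transcription factor, were called lower at all 7 times from 0.25 to 3 d. Alas2 fell by -1.41 at 0.25 d and -2.19 at 0.75 d, and Klf1 by -0.72 and -0.64 (limma adjusted p = 1.05e-06, 3.93e-09, 0.0134 and 0.0474). The summed level of the 5 measured markers ranged from 10.1 to 10.5 at 0 d, from 8.59 to 8.93 at 0.5 d, from 9.02 to 9.08 at 2 d and from 9.78 to 10.2 at 4 d. The third tested marker, Epor, had no call, with 0.21 at 0.25 d (limma adjusted p = 0.0907) and -0.04 to 0.04 from 0.5 to 3 d. Hba-a1 stayed at 3.31 to 3.75 and Slc4a1 at 5.22 or below, and neither passed the filter. At 0.25 d Hba-a1 was 3.54 to 3.75 against 3.31 to 3.51 at 0 d, and Slc4a1 4.36 to 4.43 against 4.02 to 4.27. Both lay near the floor of the array at 0 d. Kdr, of the endothelial list, was lower from 0.25 to 1.5 d, by -1.08 at 0.25 d and -0.53 at 1.5 d. Csf1r and Clec4f, of the Kupffer list, were lower at 0.5, 0.75, 1.5 and 2 d, with -0.82 and -0.75 at 2 d. Clec4f was also lower at 0.25 d, by -0.57 (limma adjusted p = 0.0429). The other markers of these lists differed. At 0.25 d Stab2 was lower, at -0.34, Lyve1 was higher, at 2.64, and Pecam1, Clec4g and Cdh5 had no call. At 0.5 d Timd4 and Adgre1 were lower as well, at -1.12 and -0.82 (limma adjusted p = 0.00719 and 0.0350). Cd5l and Vsig4 had no call there, at -0.82 and -0.42. At 2 d Cd5l, Timd4, Adgre1 and Vsig4 had no call, with 0.29, -0.18, -0.57 and -0.25. At 3 d Timd4, Cd5l and Vsig4 were higher, at 0.90, 1.38 and 0.92. The part of all these genes in the Rbl2 values was not tested.

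**Figure D2:**
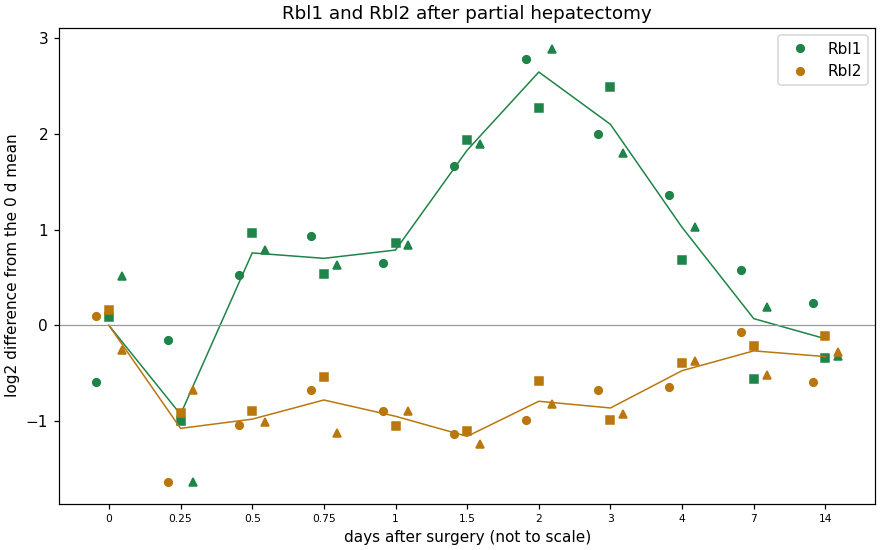
Log2 difference of Rbl1 and Rbl2 from their own 0 d means on each array, against days after surgery with times evenly spaced and not to scale; markers are the 3 arrays of a time and lines their means. Rbl1 was highest at 2 d, at 2.65 above 0 d, while Rbl2 lay below its 0 d mean on every later array, with its lowest mean at 1.5 d, at -1.16.

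The members called at each time, beside the share of all genes tested, were as follows. At 0.25 d 4 of 10 were lower, E2f3, E2f6, Rbl1 and Rbl2, where 28.8% of all genes tested were lower, and 0 were higher, where 17.2% were (limma). A count of 4 of 10 is near that background. Under quantile normalization, 3084 genes rose and 3153 fell at 0.25 d, against 2340 and 3925 with the values as deposited, and E2f3 was then not called. At an unadjusted p under 0.05, 6 members passed at 0.25 d, E2f5 and E2f8 in addition. At 0.5 d only Rbl2 was called, as lower, with backgrounds of 19.4% lower and 15.8% higher. At 0.75 d E2f6 was higher and Rbl2 lower, with backgrounds of 9.84% and 12.7%, and the same was seen at 1 d, with backgrounds of 8.16% and 9.55%. At 1.5 d E2f2 and Rbl1 were higher, 2 of 10 against 8.33% of all genes, and Rbl2 was lower, against 11.7%. At an unadjusted p under 0.05 in limma, 5 members passed at 1.5 d, E2f1 and E2f8 in addition. Without 1.5 d replicate 1 the count of called members there went from 3 to 5.

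At 2 d 5 of 10 members were higher, E2f1, E2f2, E2f7, E2f8 and Rbl1, where 1494 of the 13642 genes tested (11%) were, and 1 was lower, where 11.6% were. At 3 d those 5 were higher and Rbl2 lower again, with backgrounds of 10.2% and 10.9%. E2f7 is counted at both times, although it passed the filter on low values only through arrays on which it was high. The median difference of the 10 members was 0.62 at 2 d and 0.24 at 3 d, and that of all genes tested was -0.04 and -0.02. At 4 d limma called 0 members, with backgrounds of 1.88% higher and 0.975% lower, and 2 members, Rbl1 and Rbl2, had an unadjusted p under 0.05. At 7 d the count was 0, with backgrounds of 0.125% and 0.0586%, which are 17 and 8 genes (14 and 2 after quantile normalization). At 14 d it was also 0, with backgrounds of 0.0147% and 0.00%. No member had an unadjusted p under 0.05 in limma at 7 or 14 d.

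Between neighbouring times fewer calls were made. From 1 to 1.5 d E2f6 fell, where 0.968% of all genes fell and 1.14% rose. From 1.5 to 2 d E2f1 rose, where 1.49% of all genes rose and 0.110% fell. When 2 d replicate 2 was left out, E2f2 and E2f7 rose over that step too, by 0.99 and 1.41 (limma adjusted p = 0.0262 and 0.00496), and 3.15% of all genes rose. From 2 to 3 d E2f1 fell, where 0.213% fell and 0.205% rose. From 3 to 4 d E2f1, E2f8 and Rbl1 fell, 3 of 10 against 3.23% of all genes, and 0 members rose, where 3.03% of all genes did.

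The balance of activators against repressors was described on each array as a mean difference from the 0 d mean of each gene. Over E2f1, E2f2 and E2f3 the mean was -0.26 at 0.25 d, with arrays from -0.30 to -0.21, 0.51 at 1.5 d (0.31 to 0.68), 0.97 at 2 d (0.74 to 1.43) and 0.42 at 3 d (0.36 to 0.46). Over E2f4, E2f5 and E2f6 the mean at a time was never below -0.03, and its highest value was 0.22 at 1 d (0.19 to 0.25). The mean of -0.03, at 0.25 d, joined E2f6 at -0.44 with E2f4 at 0.13 and E2f5 at 0.22. The other E2f5 probe sets gave -0.23 and -0.16 at that time, and the balance was not computed with them. At 1 d E2f6 was at 0.81, E2f4 at -0.20 and E2f5 at 0.05. The activators minus these repressors were at -0.23 at 0.25 d (-0.35 to -0.12), 0.36 at 1.5 d (0.19 to 0.47), 0.95 at 2 d (0.66 to 1.34) and 0.41 at 3 d (0.32 to 0.47). At 4 d the balance was 0.14 (0.06 to 0.27). Without replicate 2 the 2 d balance was 1.00. The arrays of the 2 d group overlapped no array at 0 d, which ran from -0.24 to 0.18.

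Set against the atypical repressors, the activators showed the other sign at 2 and 3 d. The genes were not alike within a class. At 2 d E2f1 was at 1.03, E2f2 at 1.67 and E2f3 at 0.21, with E2f7 at 1.20 and E2f8 at 2.00. The E2f2 value thus lay above that of E2f7. Over E2f7 and E2f8 the mean was 1.60 at 2 d (0.87 to 2.14) and 1.14 at 3 d (0.90 to 1.29). Of these genes, E2f7 passed the filter only through arrays on which it was high. Activators minus atypical repressors came to -0.63 at 2 d (-1.04 to -0.12; -0.88 over the 2 arrays without replicate 2) and -0.73 at 3 d (-0.86 to -0.55), and the 0 d arrays ran from -0.34 to 0.20. At 2 d 1 array of 3 overlapped them and at 3 d none did. At 0.25 d the value was -0.89 (-1.22 to -0.36), which rests on single high arrays of E2f7 and E2f8. Rbl1 minus Rbl2 was widest at 2 d, at 3.45 (2.85 to 3.78), and was already 1.74 at 0.5 d (1.56 to 1.87), against -0.69 to 0.77 at 0 d. These differences compare each gene with its own 0 d value and say nothing of which protein is more abundant.

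**Figure D3:**
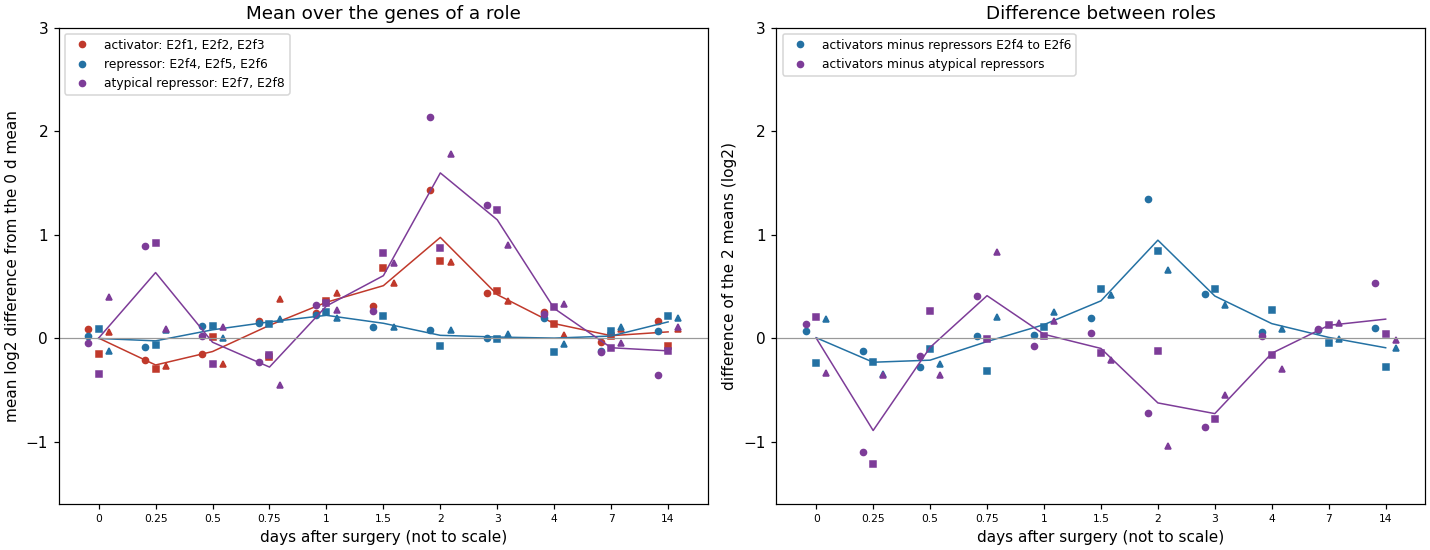
Left, mean log2 difference from 0 d over the activators E2f1 to E2f3, the repressors E2f4 to E2f6 and the atypical repressors E2f7 and E2f8; right, the activators minus each class of repressors, both against days after surgery, evenly spaced and not to scale, with 3 arrays per time as markers (circle, square and triangle for replicates 1, 2 and 3) and means as lines. At 2 d the activators stood 0.95 above the repressors E2f4 to E2f6, and their difference from the atypical repressors was -0.63.

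The members called higher at 2 d correlated with each other at 0.49 to 0.81 over the 33 arrays. Pearson's r was 0.76 for E2f1 with E2f8, 0.71 for E2f1 with E2f2, 0.81 for E2f2 with Rbl1, 0.69 for E2f1 with Rbl1 and 0.60 for E2f8 with Rbl1. E2f7 gave the lowest values, 0.49 with E2f1, 0.50 with E2f2, 0.51 with E2f8 and 0.51 with Rbl1. E2f3 and E2f6 correlated at 0.70, and Rbl1 and Rbl2 at -0.37. Of all other genes tested, the most like E2f1 were Chaf1b, Pold1 and Timeless (r of 0.92, 0.89 and 0.89), which serve chromatin assembly and replication. The most like E2f2 were Skp2, Wdr76 and Mcm7 (0.90, 0.89 and 0.88), and those most like Rbl1 were Tmpo, Orc6 and Dnmt1 (0.94, 0.93 and 0.93). For E2f7 they were Cdca2, Ckap2l and Espl1 (0.81, 0.78 and 0.77), the last being separase, which releases sister chromatids, and for E2f8 Slfn9, Syce2 and Cenph (0.85, 0.83 and 0.83). For Rbl2 they were Zmym5, Pcmtd2 and Sirt3 (0.94, 0.92 and 0.92), and for E2f6 Emc1, Psmd5 and Cmas (0.91, 0.89 and 0.88). The genes most like E2f3 were Slc25a40, Coprs and Pgp (0.81, 0.76 and 0.74), for E2f4 Slain1, Relt and Muc5ac (0.79, 0.77 and 0.77), and for E2f5 Gtpbp2, Plekhs1 and Unc5c (0.77, 0.76 and 0.74). All points share the same arrays and the same time course, and these are descriptions without a test.

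The dimer partners of the E2Fs split. Tfdp1, which encodes DP1, was higher by 0.50 at 0.5 d, 0.57 at 1.5 d, 0.80 at 2 d and 0.55 at 3 d (limma adjusted p = 0.0126, 0.00875, 0.000378 and 0.0110). Tfdp2, which encodes DP2, fell by 0.86 at 0.25 d, fell by 1.00 at 0.5 d, fell by 0.51 at 0.75 d and fell by 0.44 at 1 d (limma adjusted p = 2.75e-05, 4.13e-06, 0.00926 and 0.0293), and at 2 d its difference was -0.05. Of the MuvB core, which pocket proteins join in resting cells, and its later partners, 6 of 7 genes were tested. Lin9 and Lin54 were higher at 2 d by 1.14 and 1.22 (limma adjusted p = 2.81e-05 and 5.81e-05), while Lin9 and Rbbp4 were lower at 0.25 d by -1.13 and -1.08 (limma adjusted p = 1.14e-05 and 6.12e-09). Foxm1, a mitotic partner of the complex, had no call, with 0.05 ± 0.10 at 2 d (limma adjusted p = 0.758). With 2 d replicate 2 left out, 3 of the 6 were higher at 2 d in place of 2.

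The G1 cyclins, the kinases that phosphorylate pocket proteins and their helpers were listed as 10 genes, all tested. At 0.25 d 5 were lower, Skp2 by -0.81 and Cdk6 by -0.80 among them, where 28.8% of all genes tested were. None was higher, where 17.2% of all genes were. Cdc25a, the phosphatase that frees kinases from inhibition, was higher from 0.5 to 3 d, by 0.94 at 0.5 d (limma adjusted p = 7.09e-06). At 1.5, 2 and 3 d 6, 7 and 4 of the 10 were higher and none lower, led by Ccne2, at 1.78, 2.38 and 2.01, and Ccnd1, at 1.55, 2.37 and 1.87. Of 5 tested kinase inhibitors, Cdkn1a, which encodes p21, rose by 4.25 at 0.25 d (limma adjusted p = 9.13e-08) and was 1.86 higher at 2 d (limma adjusted p = 0.00393). Cdkn2c was lower by -1.29 at 0.25 d and higher by 1.65 at 2 d (limma adjusted p = 0.000307 and 5.12e-05).

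Genes known as E2F targets in G1 and S phase were mostly called higher from 1.5 to 3 d. Of 35 listed, 32 were tested. At 0.25 d 17 were lower and 3 higher, with a median difference of -0.62, where 28.8% of all genes were lower, led by Tk1 at -2.85 and Mcm10 at -2.72. At 1 d 8 were higher and 2 lower, with Cdc6, which loads the replicative helicase, at 1.34. At 1.5 d 28 were higher and 1 lower, at 2 d again 28 and 1, and at 3 d 27 and 0, with medians of 1.29, 2.01 and 1.59. The largest called differences at 2 d were those of Mcm5, at 3.93 ± 0.39, Uhrf1, at 3.85, Cdc6, at 3.79, and Mcm6, at 3.56 (limma adjusted p = 7.67e-08, 3.41e-08, 1.18e-07 and 9.36e-08). At 4 d 2 were higher. From 3 to 4 d 27 of the 32 fell and none rose. The 28 calls at 1.5 d came at a time when E2f2 was called higher and E2f1 was not. E2f1 was then 0.31 ± 0.14 above 0 d (limma adjusted p = 0.123), and its unadjusted p in limma was under 0.05. Whether E2f1 and E2f2 differed in their rise at 1.5 d was not tested. Over all genes tested, the median difference from 0 d lay between -0.05 and 0.00 at every time.

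G2/M target genes came later, with 14 of 15 tested. At 0.25, 0.5 and 0.75 d 3 were lower, where 28.8%, 19.4% and 12.7% of all genes were, so that the first of these counts was below the background. Birc5, an inhibitor of cell death that acts in mitosis, was among them, at -1.89, -2.08 and -1.79. At 1.5 d 8 were higher, at 2 d 13, at 3 d 13 and at 4 d 6, with medians of 1.25, 2.96, 3.03 and 1.30. Mki67, a proliferation marker, was 3.70 higher at 2 d and 4.04 at 3 d (limma adjusted p = 4.40e-06 and 2.68e-06), and Ccnb2, a mitotic cyclin, 4.21 higher at 3 d (limma adjusted p = 2.90e-05). All 14 were higher at 2 d once replicate 2 was left out, with a median of 3.94. On that array the G1/S genes were 1.56 above 0 d, and on replicates 1 and 3 they were at 2.44 and 2.12. E2f2, E2f7, E2f8 and Rbl1 had their lowest 2 d value there, while E2f1 had its lowest on replicate 3. Without it the G1/S counts at 2 d were 28 higher and 1 lower, with a median of 2.35.

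**Figure D4:**
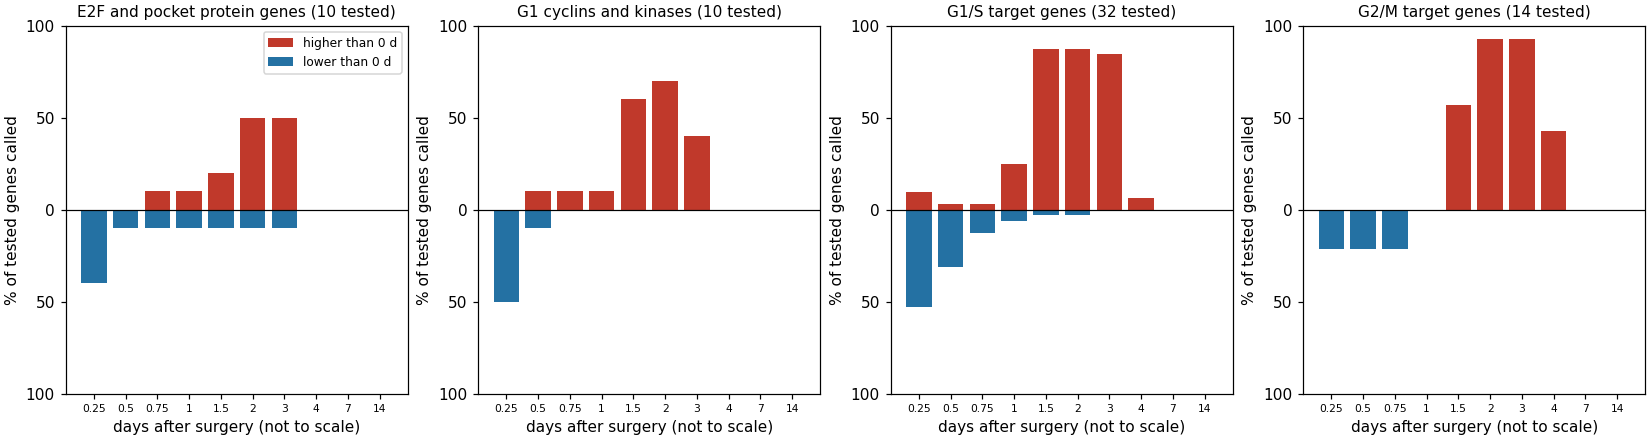
Percent of tested genes called higher (red, upward) or lower (blue, downward) than 0 d by limma at an adjusted p under 0.05, for the 10 E2F and pocket protein genes, 10 G1 cyclins and kinases, 32 G1/S target genes and 14 G2/M target genes, against days after surgery (evenly spaced, not to scale). Calls of higher were most frequent from 1.5 to 3 d in all 4 groups, and 6 of 14 G2/M genes were called higher at 4 d.

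Of 7 tested partners of E2F6 in its complex, limma called 0 at 1 d, when E2f6 was highest, and 0 had an unadjusted p under 0.05 there. Max was higher at 0.25 and 0.5 d, by 0.49 and 0.62 (limma adjusted p = 0.00117 and 0.000120), and Pcgf6 and L3mbtl2 were lower at 0.25 d, by -0.37 and -0.34 (limma adjusted p = 0.00667 and 0.00166). Of 4 germline genes known to be held silent by E2F6, 1 passed the filter, and it had no call and no unadjusted p under 0.05 at any time.

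Markers of other liver cells moved at some of the same times. At 3 d, when E2f1, E2f2, E2f7, E2f8 and Rbl1 were still called higher, 3 of 6 Kupffer cell markers and 2 of 3 tested neutrophil and monocyte markers were higher too. The Kupffer summed level ranged from 12.5 to 12.8 at 3 d, against 11.4 to 12.0 at 0 d and 11.3 to 11.7 at 2 d. At 2 d, when E2f1, E2f2, E2f7, E2f8 and Rbl1 had their highest means, 2 Kupffer markers were lower and of the 3 neutrophil and monocyte markers 1 had an unadjusted p under 0.05 and 0 were called by limma. At 0.25 d all 3 tested neutrophil and monocyte markers were higher, with S100a9 at 2.56 and S100a8 at 2.53, and so were 2 of 4 tested adipocyte markers, Cidec at 5.31 and Fabp4 at 2.06. The summed level of the 5 measured adipocyte markers was then 10.7 or more on each array, against 7.89 to 9.12 at 0 d. At 0.25 d 3 of 6 stellate cell markers were called too, Col3a1 at -2.47, Lrat at -0.78 and Dcn at 0.69, and 3 of 6 endothelial markers, Lyve1 at 2.64, Kdr at -1.08 and Stab2 at -0.34. Of 4 tested cholangiocyte markers 2 were higher then, Sox9 at 1.36 and Epcam at 0.64. The part of these cells in the members' values at 0.25 and 3 d was not tested.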

How the data were processed

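Total RNA of mouse livers was labelled (5 µg per sample) and hybridised to Affymetrix mouse genome arrays, per the labels' protocols. The authors deposited a table of log2 signals for 45101 probe sets, and the submitters' processing notes name RMA, without a version; the background correction, summary and build behind it are not given in the sources used here. Signals on such a table have no read depth, and 3 arrays per time limit the precision. Of the probe sets, 34945 name 1 gene, 932 name several and 64 are controls; none was named from a probe set with several genes. Each of 18193 genes was represented by its probe set with the highest mean, and 13642 genes with a log2 value of at least 5 on at least 3 arrays were tested; 4551 were left out.

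Each time was compared with 0 d, and 4 pairs of neighbouring times with each other, in 1 limma fit over the 33 arrays (limma 3.58.1, R 4.3.3; a mean per time, 22 residual degrees of freedom), two-sided, with Benjamini-Hochberg adjustment over all genes within a comparison and a threshold of 0.05. A log2 difference carries its standard error. The code was tested on simulated data, with values drawn at random and 200 genes changed at 2 d. Of 178 calls against 0 d there, 14 were false (7.87%). Of the changes put in, 55.2% of the smallest size were recovered, 92.5% of the middle size and 98.5% of the largest. Figures used Python 3.11.15 and matplotlib 3.10.9. Alternatives were another filter or none, averaging the probe sets of a gene, the other probe sets singly, quantile normalization, a common median, an intensity trend, array weights, a replicate block, the compared arrays alone, a joint adjustment and each array left out in turn. Leaving out 2 d replicate 2 for the pathway lists was added after seeing the data.

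The members and lists were chosen with earlier results of these data known. Named genes were the 10 members, up to 4 called genes of a pathway list with the largest difference at a time, and the 3 genes most like each member by Pearson's r; Foxm1, Tfdp2 and the marker genes are named because a count rests on them. Promoter windows were read from RefSeq (GRCm38.p6).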

Additional observations from a re-analysis of the deposited data

How the results depend on the processing

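Of the 30 called differences of single members, 30 kept their call with array weights, with the replicate block, without a filter, after shifting arrays to one median, and with a robust prior that follows intensity. Replicate numbers did not pair the arrays: over 165 pairs of equal number the mean correlation of deviations was 0.017 (-0.35 to 0.39), with 33 above 0.1, against -0.007 for unequal numbers. With the replicate block, 6 members were called at 2 d and 6 at 3 d, as without it. Quantile normalization ended 3 calls, the compared arrays alone 8, and averaging the probe sets of a gene 4. Among the other probe sets that passed the filter the sign turned for E2f1 at 3 d (-0.00), from 1.5 to 2 d (-0.13) and from 3 to 4 d (0.23), for E2f3 at 0.25 d (0.09) and for E2f6 at 0.25 d (0.05); the first 4 of these lie on probe sets near a log2 value of 5.

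Counts of called members moved as follows, and the cause was not tested. With a filter at 7, which removes members, they went from 1 to 2 at 0.5 d, from 6 to 3 at 2 d and at 3 d, from 9 to 5 over the whole course, and from 1 to 0 from 1.5 to 2 d and from 2 to 3 d. With the mean of probe sets they were 2 at 0.25 d, 2 at 0.5 d, 1 at 0.75 d and 0 from 2 to 3 d. With array weights they were 2 at 0.5 d, 4 at 1 d, 1 at 4 d, 4 from 1 to 1.5 d, 5 from 1.5 to 2 d and 3 from 2 to 3 d, and pathway genes at 4 d went from 9 to 14. With the compared arrays alone they were 1 at 0.25 d, 1 at 0.75 d, 2 from 1 to 1.5 d, 0 from 1.5 to 2 d and 0 from 2 to 3 d, and with joint adjustment 1 at 4 d. With each array left out in turn, counts ran from 7 to 9 over the whole course, 3 to 5 at 0.25 d, 1 to 2 at 0.5 and 0.75 d, 3 to 5 at 1.5 d, 2 to 6 at 3 d, 0 to 1 at 4 d, 1 to 2 from 1 to 1.5 d, 0 to 3 from 1.5 to 2 d, 0 to 1 from 2 to 3 d and 0 to 3 from 3 to 4 d. Without 2 d replicate 2 the pathway genes called went from 9 to 17 at 4 d and from 0 to 1 at 7 d.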
